A study of Mus musculus with 4 samples.

Results

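DNA transposons are the repeat class that moves through a DNA intermediate. An intact element codes for a transposase, which cuts the element out at its terminal inverted repeats and pastes it in at another site, and short copies that have lost the gene can be moved by the transposase of a relative. In mouse and other mammals nearly all copies are old, mutated remnants, many of them in introns and between genes, and they are classed by the transposase they descend from. The hAT group includes the Charlie, Tip100 and Blackjack lineages, and the Tc1/mariner group (written TcMar in the repeat annotation) includes Tigger, Tc2 and Mariner. Several host genes were built from such transposases and now serve functions of the cell.

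The DNA transposon families described here are the rows of the deposited count table whose class field is DNA. There were 204 of them among 1562 repeat families and 56404 rows in all, and the annotation placed them under 17 superfamily names. Counts came from total RNA, depleted of ribosomal RNA, of 2 libraries of wild-type (wt) mouse embryonic fibroblasts (MEF cells) and 2 libraries of MEF cells of the genotype Top2β-null, which lack DNA topoisomerase 2β, an enzyme that passes one DNA duplex through a cut in another. All cells were untreated. The study set up this comparison to ask about DNA topology and the transcription of major satellite repeats, and the DNA transposons were counted in the same libraries. Per the study the Top2β-null MEF cells were derived from Top2β-null mice and were received from other laboratories, so genotype and the origin of the cells cannot be told apart. The labels do not say whether replicates were separate cultures, and p-values then measure the spread between these libraries, which may be technical.

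Libraries held between 133116830 and 149647278 counts. Top2b, the gene removed in the mutant, had normalized counts of 18259 and 18465 in wt and of 3879 and 3789 in Top2β-null MEF cells, or 20.9% of the wt mean, and which exons the remaining counts came from was not examined. Of 12 fibroblast markers, 11 were above 100 normalized counts in every library and Lum was below 10. Their summed level ran from 1321215 to 1345168 in wt and from 906178 to 911251 in Top2β-null MEF cells, carried by Col1a1, Vim and Fn1, while Dcn (226 and 223 against 7053 and 7239), Thy1, Pdgfra, Pdgfrb and Col6a1 were at higher levels in Top2β-null MEF cells. Sums of 7 leukocyte markers ran from 779 to 812 in wt and from 1048 to 1067 in Top2β-null MEF cells, with Tyrobp at 0 throughout, those of 5 epithelial markers from 77.7 to 90.8 and from 20.7 to 20.8, those of 4 endothelial markers from 162 to 165 and from 252 to 258, and those of 3 pluripotency markers from 14.5 to 16.1 and from 53.9 to 62.4. Nearly all of the leukocyte sum was Csf1r, the endothelial rise was Kdr, with Tek lower, and the pluripotency rise was Nanog (3.03 and 0.966 against 43.5 and 42.6). The part of these differences in the results below was not tested. Top2β-null replicate 1 stood apart from replicate 2 in its repeats. Repeats took 21.4% of its counts and 20.3% of those of replicate 2, and 183 of the 196 DNA families tested were higher in replicate 1, with a median log2 ratio of 0.11. Between the wt libraries, 112 of 196 were higher in replicate 1, and the median log2 ratio was 0.015.

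Under the TMM scaling used here the summed class differed between the genotypes by less than the replicate spread, while as a share of all counts both Top2β-null libraries lay above both wt libraries. DNA transposons received 1082652 and 1118905 counts in the wt libraries and 1104119 and 1071592 counts in the Top2β-null libraries. As a share of all counts this was 0.754% ± 0.0087 (SD, n = 2) for the wt, with 0.760% and 0.748%, and 0.802% ± 0.038 for the Top2β-null libraries, where replicate 1 gave 0.829% and replicate 2 gave 0.775%. Among repeat counts the class took 3.88% ± 0.023 in the wt and 3.85% ± 0.044 in the Top2β-null libraries. After normalization the log2 difference of the class sum, Top2β-null minus wt, was 0.020, smaller than the pooled replicate SD of 0.054, and an exact two-sided permutation test over the 4 libraries gave p = 1 (the smallest p that 2 against 2 libraries allow is 0.33, so the test could not have passed). The difference was 0.089 when scaled to the total count and 0.092 without Top2β-null replicate 2, both larger than that SD. In such bulk RNA, fewer cells that express an element and less RNA per cell cannot be told apart. A count here also does not separate transcripts that start in a transposon from transposon copies read as part of a longer host transcript.

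A few families carried most of the class. URR1A and URR1B, short hAT-Charlie elements known from rodents, together held 23.5% of the counts, the 8 most abundant families held 50.3%, and the 20 most abundant held 69.9%. URR1A had normalized counts of 133581 and 131066 in wt and of 138156 and 129181 in Top2β-null MEF cells. The groups overlapped, and the fitted log2 fold change was 0.015 ± 0.033 (SE). URR1B had 125210 and 122587 in wt and 127648 and 120258 in Top2β-null MEF cells, again with overlapping groups, and a log2 fold change of 0.00063 ± 0.032. MER2, a short relative of the Tigger elements, had 66722 and 65970 in wt and 69961 and 64881 in Top2β-null MEF cells. RCHARR1 (hAT-Charlie), MER20 (hAT-Charlie), MER5A (hAT-Charlie), Tigger7 and Charlie1a completed the 8, with log2 fold changes between -0.036 (MER20) and 0.028 (Tigger7). None of the 8 passed an adjusted p of 0.05 by the quasi-likelihood test of edgeR (Benjamini-Hochberg over all features), and in each of them Top2β-null replicate 1 was above and replicate 2 below both wt libraries. With a library left out, 1 group holds a single library that is assumed to vary like the pair of the other group, so calls made or kept that way are less secure than those from all 4. Without Top2β-null replicate 2 the test called 6 of the 8 higher (URR1A, MER2, RCHARR1, MER5A, Tigger7 and Charlie1a, with log2 fold changes between 0.064 and 0.11), and without Top2β-null replicate 1 it called MER20 lower (-0.062). Scaled to the total count it called 5 of them higher (URR1A, MER2, MER5A, Tigger7 and Charlie1a, between 0.073 and 0.097), and with the repeats fitted alone it called MER20 lower (-0.072).

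Single families were tested in a fit of all genes and repeat families that reached 10 counts in 2 or more libraries. Of the 204 DNA families 196 entered it, 1 of them (MamRep1161) through the Top2β-null libraries alone, so that it had to differ, and the other 8 had at most 9 counts in any library, 3 of them with 0 in all. In Top2β-null MEF cells 46 families were higher (45 without MamRep1161), 24 were lower and 126 did not pass an adjusted p of 0.05 in edgeR's quasi-likelihood test. That is 23.5% higher and 12.2% lower. Across all 26566 genes and repeat families tested, 32.5% were higher and 32.5% lower, and across the 1481 repeat families 27.6% were higher and 12.5% lower, so the share of DNA families past the test was below that of all features and close to that of repeats in general.

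The changes were small. None of the 196 families was past the cut-offs of the study's methods (an adjusted p below 0.05, a change of more than 2-fold and a mean normalized count above 100) in edgeR's quasi-likelihood test, none was with an unadjusted p, and none was with DESeq2. Among all features 5.27% passed these cut-offs as higher and 4.97% as lower. Of the 180 families with a mean above 100 the change was at most a rise of 48.9% in DNA1_Mam, and at the other end MamTip1 fell by 30.1%. The median log2 fold change over the 196 families was 0.064 and the median of its absolute value was 0.12, where the medians over all features were 0.0027 and 0.39. Families that were higher held 10.2% of the class's counts, families that were lower held 4.21%, and families that did not pass held 85.6%.

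**Figure D1:**
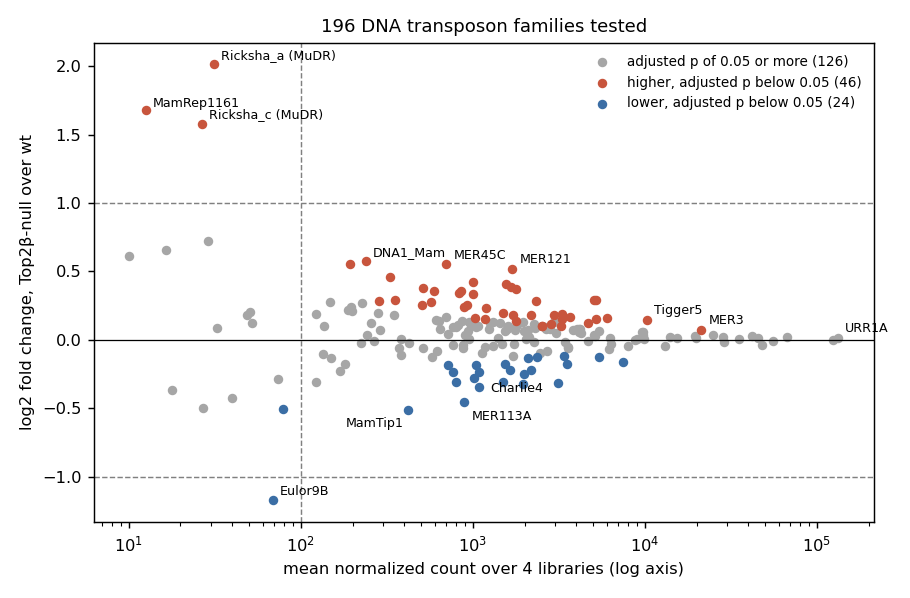
Each point is 1 of the 196 DNA transposon families tested, with its mean normalized count over the 4 libraries (log axis) across and its fitted log2 fold change, Top2β-null over wt, upward. Dashed lines mark a mean of 100 and a 2-fold change, and the 4 families beyond 2-fold, MamRep1161 among them, all have a mean below 100, while the most abundant families lie close to 0.

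The balance of higher and lower families moved with the scaling and with 1 library. Scaled to the total count without further factors, 104 families were higher and 15 lower. With the repeats fitted alone, 28 were higher and 27 lower. Scaled to the class's own total, so that only the makeup of the class is compared, 27 were higher and 20 were lower, and all of these were among the 46 and the 24. Without Top2β-null replicate 2 the numbers were 100 and 12, and without Top2β-null replicate 1 they were 41 and 25. Leaving out each library in turn, 32 of the 46 higher and 11 of the 24 lower families passed every time, 12 of the lower families did not pass without Top2β-null replicate 2, and DESeq2 found 36 higher and 17 lower.

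The size of the change went with the level of the family. The 18 families above 10000 normalized counts held 68.1% of the class, and their median absolute log2 fold change was 0.022. Only MER3 (hAT-Charlie) and Tigger5 (TcMar-Tigger), named after their values were seen, passed the test among them, both higher. MER3 had 20813 and 20704 in wt and 22527 and 21200 in Top2β-null MEF cells, a log2 fold change of 0.075 ± 0.029 that did not pass without wt replicate 1 (0.064) or wt replicate 2 (0.056). Tigger5 had 9854 and 9708 against 11256 and 10407, a log2 fold change of 0.15 ± 0.032. Between 1000 and 10000 counts 26 of 99 families were higher and 17 lower, with a median absolute log2 fold change of 0.10. Between 100 and 1000 counts 15 of 63 were higher and 5 lower, with a median of 0.17, and up to 100 counts 3 of 16 were higher and 2 lower, with a median of 0.50. Without MamRep1161, which entered the fit only through the Top2β-null libraries, the latter were 2 of 15 higher and 2 lower. These counts stand beside 32.5% in each direction over all features and 27.6% higher and 12.5% lower over repeats. Over the 196 families, which share libraries and reads and are not independent, Spearman's rho between level and absolute change was -0.55. Standard errors grow as counts fall, from 0.028 to 0.61 on the log2 scale, and their part in this relation was not tested.

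By superfamily, the 3 most abundant lineages did not pass the test and 4 small ones rose under the scaling used here. hAT-Charlie, with 73 families and 68.4% of the counts, had summed normalized counts of 749529 and 740467 in wt and of 779460 and 725102 in Top2β-null MEF cells, so that the groups overlapped, and the log2 fold change of the sum was 0.014 ± 0.026 (SE). TcMar-Tigger, with 44 families and 23.0% of the counts, had sums of 250647 and 247960 in wt and of 264444 and 243947 in Top2β-null MEF cells, a log2 fold change of 0.028 ± 0.028. hAT-Tip100 (30 families, 2.78% of the counts) had a log2 fold change of 0.0052 ± 0.029. In the fit of genes and superfamily sums, where 33.2% of 25143 rows were higher and 34.0% lower, 4 of the 16 superfamily sums tested rose at an adjusted p below 0.05 and none fell. That number depended on the settings. Scaled to the total count 14 passed as higher, hAT-Charlie (0.084), TcMar-Tigger (0.098) and hAT-Tip100 (0.075) among them, and with the repeats fitted alone 1 passed, TcMar?.

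The superfamily sum that rose with the smallest adjusted p was that of the uncertain Tc1/mariner lineage written TcMar?, by a log2 fold change of 0.51 ± 0.053 (edgeR's quasi-likelihood adjusted p = 6.7e-08). Nearly all of its counts came from 1 family, MER121. The TcMar sum, which joins DNA1_Mam and MamRep1161, went from 188 and 208 in wt to 284 and 326 in Top2β-null MEF cells, a log2 fold change of 0.62 ± 0.12 (edgeR adjusted p = 1.0e-04). Under a minimum of 100 counts in every library, which leaves DNA1_Mam alone, it was 0.58. The MuDR sum, of elements related to the Mutator transposons of plants, went from 720 and 810 to 928 and 833, a log2 fold change of 0.20 ± 0.071 (edgeR adjusted p = 0.018). The TcMar-Tc2 sum went from 11572 and 11429 to 12409 and 11728, a log2 fold change of 0.069 ± 0.029 (edgeR adjusted p = 0.040). The last 2 did not pass with DESeq2 (adjusted p of 0.071 for MuDR and 0.060 for TcMar-Tc2), nor when scaled to the class total. MuDR also did not pass without wt replicate 1 (log2 fold change of 0.10) or Top2β-null replicate 1 (0.16), nor under a minimum of 100 counts in every library, which drops its low Ricksha rows (0.10, edgeR adjusted p = 0.23), and TcMar-Tc2 without wt replicate 1 (0.064), wt replicate 2 (0.046) or Top2β-null replicate 1 (0.067). With the repeats fitted alone TcMar did not pass either (edgeR adjusted p = 0.061). Without Top2β-null replicate 2, 10 further superfamily sums passed as higher, among them hAT-Charlie (0.084) and TcMar-Tigger (0.10). The sum of hAT-Blackjack lay just outside the threshold (0.078, edgeR adjusted p = 0.054) and passed as higher under 8 of the 13 alternatives, with adjusted p from 1.3e-07 to 0.56 over all of them. Together the 4 superfamilies past the test as reported held few of the counts, TcMar-Tc2 the most with 1.08%.

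**Figure D2:**
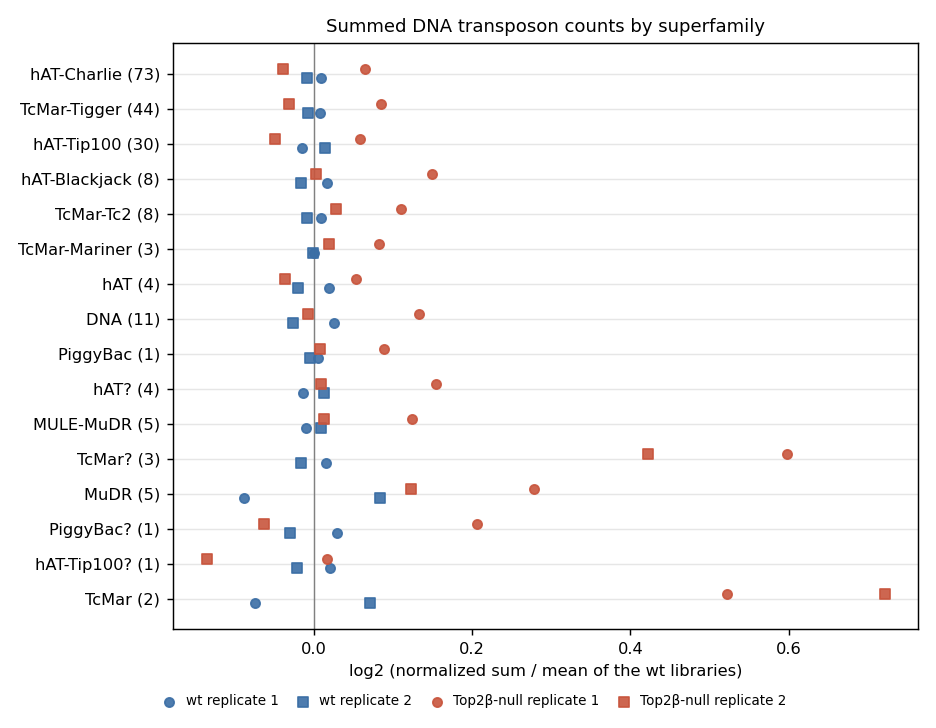
Log2 of each superfamily's summed normalized count over the mean of the wt libraries, 1 point per library, with the number of families in parentheses and superfamilies ordered by abundance from top to bottom. TcMar? and TcMar have both Top2β-null libraries far to the right of wt, while in hAT-Charlie, TcMar-Tigger and hAT-Tip100 the Top2β-null libraries fall on either side of wt, replicate 1 to the right.

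Inside the larger superfamilies some families were higher and others lower, at shares to be read against 32.5% in each direction over all features and 27.6% and 12.5% over repeats. hAT-Charlie had 13 families higher, 9 lower and 51 not past the test, with log2 fold changes from -0.50 to 0.65, and its median was 0.033. TcMar-Tigger had 10 higher, 4 lower and 28 not past, with a median of 0.060. hAT-Tip100 was evenly divided, with 6 higher, 6 lower and 17 not past. hAT-Blackjack had 3 higher, 1 lower and 4 not past, and TcMar-Tc2 had 4 higher, 1 lower and 3 not past. The families that the annotation leaves at the bare name DNA, with no superfamily, had 3 higher, 2 lower and 6 not past.

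**Figure D3:**
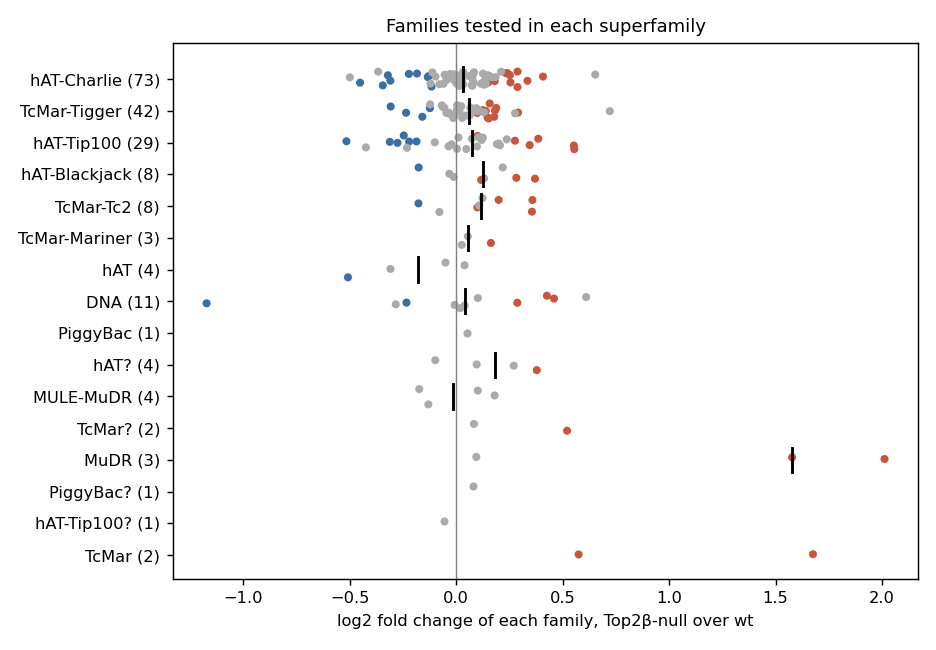
Fitted log2 fold change, Top2β-null over wt, of each of the 196 families tested, by superfamily with the number tested in parentheses, where red points are higher and blue points lower at an adjusted p below 0.05, grey points did not pass, and the black bar is the median. hAT-Charlie, TcMar-Tigger and hAT-Tip100 have points past the test on both sides of 0, the points above 1 belong to MuDR and TcMar, and the point below -1 is Eulor9B under DNA.

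Among families with a mean above 100, an adjusted p below 0.05 and no group overlap, the 10 largest rises came from 7 superfamily names. DNA1_Mam (TcMar) had 181 and 203 normalized counts in wt and 269 and 302 in Top2β-null MEF cells, a log2 fold change of 0.57 ± 0.12 (SE). FordPrefect_a (hAT-Tip100), a short form of FordPrefect, had 157 and 154 in wt and 256 and 203 in Top2β-null MEF cells, a log2 fold change of 0.55 ± 0.14. FordPrefect itself was far more abundant, with 4225 and 4145 in wt and 4401 and 4249 in Top2β-null MEF cells, and did not pass the test (log2 fold change of 0.047 ± 0.034).

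MER121 belongs to the old repeats whose copies are known to be conserved between mammals outside coding sequence. It had 1413 and 1368 normalized counts in wt and 2118 and 1873 in Top2β-null MEF cells, a log2 fold change of 0.52 ± 0.058 with an adjusted p of 7.8e-07 in edgeR's quasi-likelihood test. Both Top2β-null libraries lay above both wt libraries, as the choice of these families required. MER135, an element with no superfamily assigned, had 886 and 833 against 1254 and 1056, a log2 fold change of 0.43 ± 0.074. Eulor9C, one of the Eulor repeats, ancient elements recognized by their conservation, had 272 and 281 against 409 and 352, a log2 fold change of 0.46 ± 0.099. Over the 8 Eulor and UCON families tested, 1 was higher (Eulor9C), 1 was lower (Eulor9B) and 6 did not pass, with a median log2 fold change of 0.080, beside 32.5% called in each direction over all features.

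Charlie9 (hAT-Charlie) had 1323 and 1353 in wt and 1827 and 1724 in Top2β-null MEF cells, a log2 fold change of 0.41 ± 0.051 (edgeR's quasi-likelihood adjusted p = 2.75e-06). MER115 (hAT-Tip100) had 1447 and 1464 against 1962 and 1842, a log2 fold change of 0.39 ± 0.050. MER63A (hAT-Blackjack) had 1592 and 1540 against 2120 and 1927, and MamRep4096, of the uncertain lineage hAT?, had 433 and 465 against 626 and 543. In each of these the higher of the Top2β-null libraries was replicate 1, whereas in DNA1_Mam it was replicate 2. All 10 families passed again with each library left out, under the assumption on the single library given above.

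The 10 largest falls were taken among families with a mean above 100, an adjusted p below 0.05 and no group overlap. Of these 10, 8 were hAT elements and the other 2 Tigger elements. They came from hAT-Charlie (73 of the 196 families tested), hAT-Tip100 (29) and TcMar-Tigger (42), the largest lineages of the class. The split is to be read against that makeup. MamTip1 (hAT-Tip100) had 510 and 474 normalized counts in wt and 356 and 332 in Top2β-null MEF cells, a log2 fold change of -0.52 ± 0.084 (SE). MER113A (hAT-Charlie) had 1082 and 975 in wt and 750 and 753 in Top2β-null MEF cells, a log2 fold change of -0.45 ± 0.064. Charlie4 (hAT-Charlie) had 1228 and 1214 against 990 and 933, a log2 fold change of -0.35 ± 0.056. The choice required both Top2β-null libraries to lie below both wt libraries, and in these 3 the distance was larger than the gap between replicates. Since families were also ranked by their change, this is a description only.

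Charlie24 (hAT-Charlie) had 2185 and 2139 in wt and 1766 and 1695 in Top2β-null MEF cells, a log2 fold change of -0.32 ± 0.046. MamTip2 (hAT-Tip100) had 3280 and 3606 against 2869 and 2680, a log2 fold change of -0.31 ± 0.048. Tigger6b (TcMar-Tigger) had 1620 and 1685 against 1385 and 1286, a log2 fold change of -0.31 ± 0.053. Charlie26a, MER45R and MER91A followed with log2 fold changes of -0.31, -0.28 and -0.25. With a library left out Charlie26a ran from -0.38 to -0.19, MER45R from -0.36 to -0.22 and MER91A from -0.29 to -0.15. The tenth, Tigger12A, had 821 and 837 against 786 and 624, a log2 fold change of -0.24 ± 0.085. It rested on Top2β-null replicate 2, since without that library the log2 fold change was -0.058 with an edgeR quasi-likelihood adjusted p of 0.52, and it did not pass with DESeq2 (adjusted p = 0.075) or scaled to the total count (-0.17) either. The other 9 passed again with each library left out, under the same assumption.

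**Figure D4:**
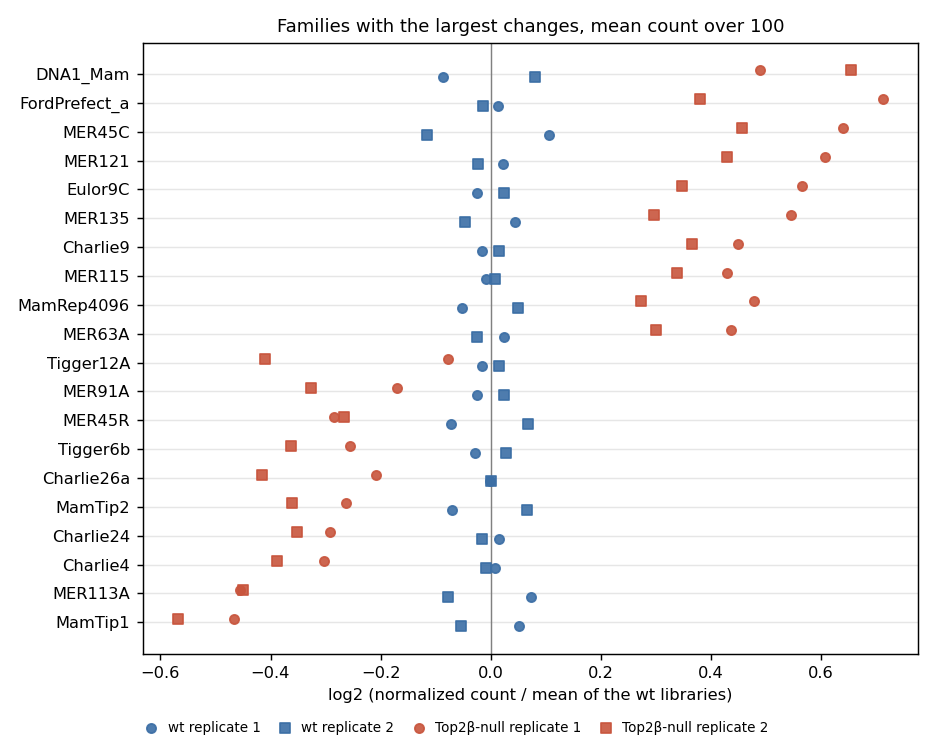
Log2 of the normalized count over the mean of the wt libraries for the 10 families with the largest rise and the 10 with the largest fall among those with a mean above 100, an adjusted p below 0.05 and groups that do not overlap, 1 point per library. Replicate 1 of Top2β-null lies to the right of replicate 2 in most families, and the gap between them is widest in FordPrefect_a and Tigger12A.

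Related families did not always carry the same call. Of 34 name stems with at least 2 families tested (95 families in all), 4 held both a higher and a lower family. These were MER45, Kanga1, MER63 and Eulor9, singled out after their values were seen. Calls were 32.5% in each direction over all features, and 23.5% higher and 12.2% lower over the DNA families. Whether 4 mixed stems differ from what such shares give was not tested. MER45C rose from 611 and 524 in wt to 884 and 778 in Top2β-null MEF cells, a log2 fold change of 0.55 ± 0.082. Its relatives of the same hAT-Tip100 lineage fell, MER45A from 2313 and 2408 to 2151 and 1901 and MER45R from 1064 and 1173 to 918 and 930. Without Top2β-null replicate 2 MER45A did not pass (log2 fold change of -0.12). MER45B had 1736 and 1769 against 2028 and 1744 and did not pass. The log2 ratio of MER45C to MER45A was -2.06 ± 0.20 (SD, n = 2) in wt and -1.28 ± 0.0039 in the Top2β-null libraries, a difference of 0.78 that any common scaling of a library leaves unchanged. The pair was chosen because its members moved apart, so the size of this difference is a description only.

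In Kanga1, a Tc2-type element, the full form had 1570 and 1710 in wt and 1452 and 1449 in Top2β-null MEF cells and was lower, though it did not pass without wt replicate 2 (log2 fold change of -0.13). Kanga1a had 743 and 749 against 1066 and 845, Kanga1b had 533 and 510 against 741 and 597, and Kanga1c had 1397 and 1375 against 1629 and 1554, and these 3 were higher. Kanga1d, the other member tested, had 834 and 747 against 829 and 873 and did not pass (log2 fold change of 0.11). In Eulor9, Eulor9C was higher and the less abundant Eulor9B was lower, with 114 and 76.3 in wt and 45.6 and 38.6 in Top2β-null MEF cells, while Eulor9A had 710 and 707 against 763 and 693. In MER63, MER63A was higher and the more abundant MER63D was lower, with 3707 and 3774 against 3494 and 3127. MER63B (log2 fold change of -0.012) and MER63C (0.13) did not pass, and their groups overlapped. Without Top2β-null replicate 2 MER63D did not pass (edgeR's quasi-likelihood adjusted p = 0.17). The deposited counts may share reads between such relatives, whose copies are alike in sequence, and the part of that sharing in these differences was not tested.

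Other stems, also picked after their values were seen, had calls in 1 direction or none. Charlie4 and Charlie4z were lower (log2 fold changes of -0.35 and -0.12) and Charlie4a did not pass (-0.043). Charlie4z did not pass without Top2β-null replicate 1 (-0.10) or replicate 2 (-0.075). MER113A was lower while MER113 (-0.055) and MER113B (-0.060) did not pass. Charlie1, Charlie1a and Charlie1b had log2 fold changes between -0.00033 and 0.023, and the 3 MER5 families between -0.047 and 0.014. By name, 6 Charlie families were higher, 6 lower and 27 not past, and 8 Tigger families were higher, 2 lower and 18 not past, beside 32.5% in each direction over all features and 27.6% higher and 12.5% lower over all repeats. Of the 11 families named MamRep or MamTip 3 were higher (2 without MamRep1161), 4 lower and 4 not past, against the same shares. MamTip3, among the lower, had 721 and 803 against 699 and 641, a log2 fold change of -0.19 ± 0.072, and did not pass without wt replicate 2 (-0.12) or Top2β-null replicate 2 (-0.11).

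Beyond 2-fold there were Ricksha_a and Ricksha_c (MuDR), Eulor9B and MamRep1161, all with a mean below 100 counts and singled out after their values were seen. Ricksha_a under the superfamily MuDR had 13.1 and 11.6 normalized counts in wt and 54.9 and 45.6 in Top2β-null MEF cells, a log2 fold change of 2.01 ± 0.33 (SE). Ricksha_c under MuDR had 13.1 and 13.5 in wt and 43.5 and 36.6 in Top2β-null MEF cells, a log2 fold change of 1.58 ± 0.34. Both passed with each library left out. The table lists the Ricksha names under both MuDR and MULE-MuDR, and the rows under MULE-MuDR did not pass, with 163 and 151 against 160 and 127 for Ricksha_a and 1025 and 1053 against 1146 and 1084 for Ricksha_c. MamRep1161 (TcMar) had 7.07 and 4.83 in wt and 14.5 and 23.8 in Top2β-null MEF cells, a log2 fold change of 1.68 ± 0.49. It entered the fit only through the Top2β-null libraries, where it is high, so its call is no evidence of a difference, and it fell below the minimum count for a test when either Top2β-null library was left out. Eulor9B, given above, fell by 1.17 on the log2 scale with an SE of 0.25.

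The most abundant family of most superfamilies did not pass the test under the scaling used here. Scaled to the total count MMAR1, MER53, FordPrefect, Looper and Ricksha_c (MULE-MuDR) passed as higher, with log2 fold changes between 0.096 and 0.17. URR1A (0.084) and MER2 (0.093), the most abundant of hAT-Charlie and TcMar-Tigger, did so too, as given above. MMAR1, the mariner element of mouse, had 5161 and 4991 in wt and 5231 and 5104 in Top2β-null MEF cells, a log2 fold change of 0.026 ± 0.031. Looper, of the piggyBac lineage, had 2994 and 2973 against 3171 and 3000, a log2 fold change of 0.048 ± 0.040. MER53 (hAT), Kanga2_a (TcMar-Tc2), MER105 (no superfamily), hAT-N1_Mam (hAT?), Ricksha (MuDR), Ricksha_c (MULE-MuDR), UCON29 (PiggyBac?) and MamRep1879 (hAT-Tip100?) had log2 fold changes between -0.099 and 0.10 and did not pass. With a library left out some of them did: hAT-N1_Mam was lower without wt replicate 1 (-0.19) and Kanga2_a without wt replicate 2 (-0.13), and without Top2β-null replicate 2 MER53 (0.10), Ricksha (0.18), Ricksha_c (0.16) and UCON29 (0.23) were higher. The families DNA1_Mam, MER121 and MER63D, described above, were the exceptions.

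Other old repeats of the same libraries are set beside the DNA families as a description. The 4 L2 families and the 4 MIR families, ancient LINE and SINE repeats of mammals, had none past the test, and their median log2 fold changes were 0.019 and -0.0038. Of 103 ERVL-MaLR families, LTR elements of similar age, 21 were higher and 12 lower, which is 20.4% and 11.7%, with a median of 0.026, beside 0.064 for DNA families. The median absolute log2 fold change was 0.12 for DNA families, 0.068 for ERVL-MaLR, 0.029 for L2 and 0.0077 for MIR families. The median level differed too, with 1480 normalized counts for a DNA family, 7397 for an ERVL-MaLR family 107474 for an L2 family and 184078 for a MIR family, and the difference between these groups was not tested.

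Among genes built from DNA transposons, Tigd5, Zbed4, Zbed5 and Cenpb fell most and Zbed3 rose most. A list of 28 such genes, or genes that share a domain with a transposase, was examined, and 24 of them entered the fit. In Top2β-null MEF cells 8 were higher, 10 lower and 6 did not pass the test, 33.3% and 41.7% of those tested beside 32.5% in each direction over all features, and their median log2 fold change was -0.072. Only Tigd5 was past the cut-offs of the study's methods. Tigd4, Pgbd1, Rag1 and Rag2 had too few counts to be tested.

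Of the genes derived from pogo or Tigger elements, Tigd5 (chr15:75909735-75914535, GRCm38) had normalized counts of 1437 and 1407 in wt and of 480 and 495 in Top2β-null MEF cells, a log2 fold change of -1.54 ± 0.059 (SE, edgeR's quasi-likelihood adjusted p = 1.1e-12). Cenpb (chr2:131175182-131180067), whose protein binds a short motif in centromeric satellite repeats, had 13008 and 12861 in wt and 7346 and 7508 in Top2β-null MEF cells, a log2 fold change of -0.80 ± 0.026. Both Top2β-null libraries of either gene were far below wt. Jrk had 3265 and 3327 against 2662 and 2535 and was lower, and Pogk was lower as well (log2 fold change of -0.29 ± 0.026). Pogz (chr3:94837567-94882326), which codes for a heterochromatin protein that binds HP1, was higher, with 6903 and 7244 against 8460 and 8629, as were Jrkl (0.35 ± 0.055) and Tigd2 (0.25 ± 0.069), the latter not past the test without wt replicate 2 (0.12). Tigd3 had 236 and 181 against 195 and 168 and did not pass, except as lower without wt replicate 2 (-0.40).

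Of the genes derived from hAT elements, Zbed4 (chr15:88751660-88784516) had 5267 and 5350 in wt and 2824 and 2898 in Top2β-null MEF cells, a log2 fold change of -0.89 ± 0.034. Zbed5 had 572 and 602 against 337 and 324, a log2 fold change of -0.83 ± 0.078. Zbed3, whose product binds axin in Wnt signaling, was higher, with 3827 and 3837 against 5442 and 5557 and a log2 fold change of 0.52 ± 0.031. Zbed6, a repressor of Igf2, had 6341 and 6444 against 6523 and 6376 and did not pass, except as higher when scaled to the total count (log2 fold change of 0.082). Its exon lies wholly within exons annotated for another gene of the same strand, so its reads cannot be assigned with certainty. Gtf2ird2, a fusion of a transcription factor gene with a Charlie transposase, was higher by 0.18 ± 0.054 on the log2 scale and did not pass with DESeq2 (adjusted p = 0.051), without wt replicate 2 (0.14) or scaled to the class total (0.16).

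Harbi1 and Naif1, which code for partner proteins descended from a Harbinger transposase and its DNA-binding protein, were both lower, Harbi1 from 494 and 486 to 315 and 355 (log2 fold change of -0.55 ± 0.085) and Naif1 by 0.16 ± 0.054 on the log2 scale. Naif1 did not pass with DESeq2 (adjusted p = 0.11), without wt replicate 1 (-0.15), without Top2β-null replicate 1 (-0.096), scaled to the total count (-0.092) or scaled to the class total (-0.18). Pgbd5, the piggyBac-derived gene with enough counts, had 85.8 and 90.8 against 108 and 113 and did not pass. Among 8 THAP genes, whose DNA-binding domain is shared with the P element transposase of flies, Thap4 (2124 and 2055 against 2982 and 2826), Thap1 and Thap2 were higher, Thap12 (15718 and 15592 against 13263 and 13500) and Thap8 were lower, and Thap3, Thap7 and Thap11 did not pass. Thap2 did not pass scaled to the class total (0.14). Thap8 had an adjusted p of 0.047 in edgeR's quasi-likelihood test and of 0.20 with DESeq2, and of the 4 libraries it passed only with Top2β-null replicate 2 left out, nor did it pass scaled to the total count (-0.26), with factors from genes only (-0.31) or with the replicate block (-0.33). Exons of Jrk, Gtf2ird2, Naif1, Thap4 and Thap8 overlap those of a gene on the opposite strand over 4.94% to 10.9% of their length, those of Pogk do so to a like extent, and the strand setting of the counting is not given in the sources used here.

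**Figure D5:**
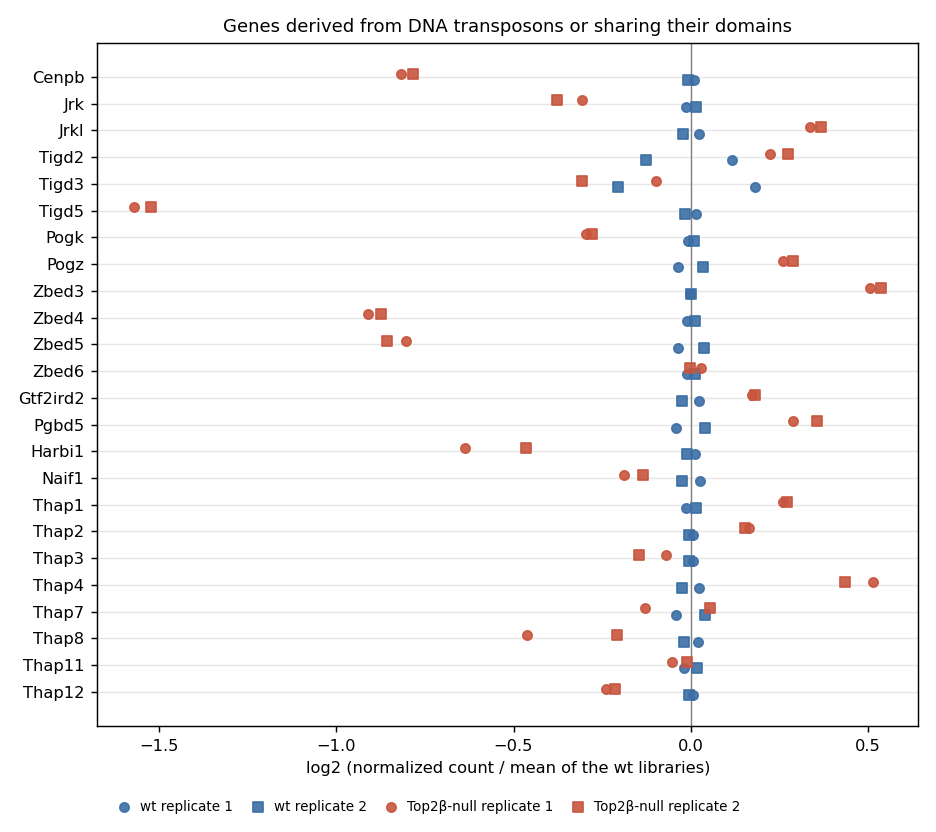
Log2 of the normalized count over the mean of the wt libraries for the 24 genes tested that derive from DNA transposons or share a domain with a transposase, 1 point per library. Tigd5 lies farthest to the left, followed by Zbed4, Zbed5 and Cenpb, and Zbed3 and Thap4 lie farthest to the right.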

How the data were processed

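Sequencing covered total RNA, after removal of ribosomal RNA, of 2 wt and 2 Top2β-null MEF libraries. The authors trimmed paired-end reads with Trim Galore! 0.4.0, aligned them to mm10 (GRCm38) with STAR 2.5.2, sorted with samtools 1.3.1 and counted with TEtranscripts 1.5.1 over Gencode M9 genes and families of RepeatMasker. The table as deposited holds raw counts, 1 whole number per feature and library. The mode for reads with several alignments is not given in the sources used here, and where such reads are shared, counts of related families depend on each other.

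Libraries were grouped by their labels, and all 4 columns were used. The members and all lists were chosen with earlier results of these data known. The 26566 features that reached 10 counts in 2 or more libraries were fitted with edgeR 4.0.16 in R 4.3.3 (TMM factors over genes and repeats, quasi-likelihood test, genotype as the only term, Benjamini-Hochberg over all features), and DESeq2 1.42.0 served as the other tool. Standard errors were taken as the size of the log2 fold change over the square root of F. To normalize, each count was divided by its library's effective size and multiplied by the geometric mean of the 4 sizes. Superfamily sums were fitted with all genes and the effective sizes of the main fit. Depth is given by the total counts, and standard errors cover counting error and the spread between these libraries. Over DNA families, chi-square divided by its degrees of freedom was 1.99 between the wt replicates and 2.07 between the Top2β-null replicates, above the value of 1 that counting error alone gives.

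Families named are the 8 most abundant, the 10 in each direction with the largest change (mean above 100, adjusted p below 0.05, groups not overlapping), those past the cut-offs of the study's methods, and the most abundant of each superfamily. All genes of the transposon-derived list are covered. All other families named were chosen after their values were seen. Gene positions are from GENCODE M21 (54409 of 54842 identifiers matched). Alternatives were DESeq2, other scalings, other filters, a replicate block and leaving out each library, where the spread comes from the other group's 2 libraries and from edgeR's pooling across features. Consensus sequences of the families were not used here.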

Additional observations from a re-analysis of the deposited data

How the results depend on the processing

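With 2 libraries in each group the balance between higher and lower families is the least certain result. Scaling to the total count gave 104 higher and 15 lower families, a class sum difference of 0.089 and a median log2 fold change of 0.13. Fitting the repeats alone gave 28 higher families, and scaling to the class total gave 27. With a library left out, higher families numbered 39 to 100, lower families 12 to 25, the class sum difference ran from -0.0028 to 0.092 and the median from 0.029 to 0.12, where 100, 12, 0.092 and 0.12 are the values without Top2β-null replicate 2. The class sum also changed sign, within the replicate SD, with the repeats alone (-0.015). The cause of these shifts was not tested.

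Signs changed under some setting for 19 results with all libraries and for 19 with a library left out, none of them past the test as reported. With the repeats alone these were the sum of hAT-Charlie (-0.022), the sum of TcMar-Tigger (-0.0078), the sum of hAT-Tip100 (-0.030), the sum of hAT (-0.026), URR1A (-0.021), URR1B (-0.035), MER2 (-0.012), MER5A (-0.022), Tigger7 (-0.0082), Charlie1a (-0.032), MMAR1 (-0.0086) and MER105 (-0.016). Scaled to the class total they were the sums of hAT-Charlie (-0.0066), hAT-Tip100 (-0.016) and hAT (-0.011), URR1A (-0.00585), URR1B (-0.020), MER5A (-0.0071), Charlie1a (-0.017), MER105 (-0.0010) and Zbed6 (-0.0066). Scaled to the total count they were MER20 (0.034), RCHARR1 (0.058), MamRep1879 (0.011), the sum of hAT-Tip100? (0.011), Thap7 (0.035) and Thap11 (0.038). RCHARR1 was 0.0074 with factors from genes only and 0.0057 with no filter. With a library left out, ranges that crossed 0 were -0.0092 to 0.084 for the sum of hAT-Charlie, -0.024 to 0.077 for hAT-Tip100, -0.025 to 0.073 for hAT, -0.023 to 0.23 for PiggyBac? and UCON29, -0.096 to 0.035 for hAT-Tip100? and MamRep1879, -0.014 to 0.081 for URR1A, -0.029 to 0.062 for URR1B, -0.016 to 0.099 for MER5A, -0.024 to 0.064 for Charlie1a, -0.013 to 0.062 for MMAR1, -0.022 to 0.074 for MER105, -0.0066 to 0.18 for Ricksha (MuDR), -0.062 to 0.046 for MER20, -0.013 to 0.048 for Zbed6, -0.11 to 0.092 for Thap7 and -0.065 to 0.027 for Thap11. RCHARR1 ran from -0.040 to 0.072 and passed the test with its sign changed without Top2β-null replicate 2.

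Replicate numbers did not pair the libraries (correlation of same-numbered deviations 0.0045 over 16443 features), and a fit with the replicate block gave 48 higher and 25 lower families and 8 higher and 9 lower genes of the transposon-derived list. Under the other filters, RLE factors, factors from genes only and DESeq2, the numbers of DNA families and of transposon-derived genes called stayed within 1.5 times of those reported. No setting put a DNA family past the cut-offs of the study's methods. For the named families, 329 of 360 values with all libraries had the reported sign and test outcome, as did 108 of 144 for superfamily sums and 177 of 191 for the transposon-derived genes. Superfamily sums past the test numbered between 1 and 14. Scaling to the class total gives no class sum difference, and the gene list has no values with the repeats alone.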

Other observations

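Rows whose class the annotation marks as uncertain (DNA?) are not counted among the families above. Of the 20 tested, 10 were higher and 2 lower in Top2β-null MEF cells at an adjusted p below 0.05 in edgeR's quasi-likelihood test, with a median log2 fold change of 0.32. Eulor10 entered the fit only through the Top2β-null libraries, where it is high, and without it 9 of 19 were higher and 2 lower, beside 27.6% and 12.5% of all repeat families and 32.5% in each direction of all features. Most are Eulor, UCON or other old, conserved elements of low level, with a median of 99.1 normalized counts. MER124 had 728 and 671 normalized counts in wt and 1116 and 1049 in Top2β-null MEF cells, a log2 fold change of 0.63 ± 0.063 (SE). Eulor2B was past the cut-offs of the study's methods, with 80.7 and 86.9 in wt and 243 and 139 in Top2β-null MEF cells, so that the Top2β-null libraries were far from each other as well. Eulor6B was lower, with 293 and 318 against 238 and 223. These rows were singled out after their values were seen.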
